A study of Homo sapiens with 6 samples.

Results

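The peaks described here lie just past the annotated 3' ends of protein-coding genes, in RNA that came down with the RNA helicase DDX5 in rhabdomyosarcoma nuclei. A peak was taken as a member where its summit, the position of its highest enrichment, fell outside every gene body of GENCODE version 44 and within 10 kb past the 3' end of a protein-coding gene. Over the 3 peak lists 1287 of 93198 peaks met the rule, made up of 300 of 23715 in replicate 1, 433 of 23651 in replicate 2 and 554 of 45832 in replicate 3. The rule used position alone, so the numbers of members are a description and carry no test.

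RNA immunoprecipitation followed by sequencing was run on extracts of nuclei from RH30, a long-used cell line of alveolar rhabdomyosarcoma, a muscle-like tumour, that is positive for the PAX3-FOXO1 fusion gene. The series has 6 samples, of which 3 are immunoprecipitates with an antibody to DDX5 and 3 are INPUT samples taken without an antibody, and all 6 come from the same line, with no treatment named. The labels call the samples biological replicates. The INPUT files were not analysed here, the depth behind the lists is unknown, and the library kit did not keep the strand, so RNA from a gene and RNA from the opposite strand past its end could not be told apart. All 8 muscle and rhabdomyosarcoma markers examined (MYOD1, MYOG, DES, CDH15, FGFR4, PAX3, FOXO1 and CHRNA1) had a peak in their gene body in every list. Of 7 markers of other cell types, 6 had none in any list, and PECAM1, an endothelial gene, had 1 peak each in replicates 1 and 3. Of all protein-coding genes, 35.2%, 35.7% and 45.8% had a peak in their body in replicates 1, 2 and 3, and 25.7% in every list. Having no peak was thus common for any gene. A peak list does not hold the level of an RNA, and the abundance of an RNA can enter the fold of its peaks.

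The 3' end of most messenger RNAs is made by cutting the nascent transcript a short way past a poly(A) signal, usually AATAAA or the variant ATTAAA, and adding a poly(A) tail. RNA polymerase does not stop at the cut but goes on for some distance, and the RNA made there is normally degraded in the nucleus until transcription ends. RNA past an annotated gene end can therefore be such read-through, a longer 3' UTR that the annotation lacks, or a separate transcript, and nuclear extracts are where the short-lived forms are found.

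The 7 stretches of the genome printed here show the sequence at summits, not which bases or which strand DDX5 bound. They come from genes named by rule, and each lies in a region that all 3 lists share, outside any RefSeq record, with the summits at most 44 bp apart. They are not every region of this kind. The windows run 5' to 3' on the strand of the gene, from GRCh38, and capitals mark the span from the first to the last of the 3 summits. URI1 was covered at chr19:30020338-30020438 on the plus strand, 3774 to 3779 bp past its end. RRAS2 was covered at chr11:14277097-14277197 on the minus strand, DSEL at chr18:67499893-67499993 on the minus strand and CRIP2 at chr14:105484717-105484817 on the plus strand. FGFR4 was covered at chr5:177099721-177099821 on the plus strand, PCSK2 at chr20:17485145-17485245 on the plus strand and MYOD1 at chr11:17727403-17727503 on the plus strand. The annotation places all 7 windows between genes.
URI1: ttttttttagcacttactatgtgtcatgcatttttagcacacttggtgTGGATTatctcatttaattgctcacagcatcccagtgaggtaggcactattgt
RRAS2: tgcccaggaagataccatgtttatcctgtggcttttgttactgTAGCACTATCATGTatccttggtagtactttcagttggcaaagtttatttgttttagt
DSEL: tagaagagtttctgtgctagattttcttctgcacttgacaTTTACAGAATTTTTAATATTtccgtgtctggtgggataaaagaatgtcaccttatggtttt
CRIP2: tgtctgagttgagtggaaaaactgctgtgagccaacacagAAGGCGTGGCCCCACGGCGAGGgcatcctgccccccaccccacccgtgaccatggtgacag
FGFR4: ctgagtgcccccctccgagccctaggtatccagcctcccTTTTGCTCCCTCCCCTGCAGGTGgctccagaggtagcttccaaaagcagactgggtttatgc
PCSK2: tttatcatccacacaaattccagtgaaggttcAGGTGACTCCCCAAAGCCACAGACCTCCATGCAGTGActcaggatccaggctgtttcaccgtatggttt
MYOD1: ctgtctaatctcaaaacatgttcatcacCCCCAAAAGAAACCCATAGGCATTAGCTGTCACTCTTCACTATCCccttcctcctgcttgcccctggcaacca

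The 3 summits past URI1 fell within 5 bp of each other, those past RRAS2 within 13 bp and those past DSEL within 19 bp. The URI1, RRAS2 and DSEL windows are rich in T on the gene strand, at 40.6%, 41.6% and 41.6%. The CRIP2 and FGFR4 windows are instead rich in G and C, at 62.4% and 60.4%. None of the 7 windows holds AATAAA or ATTAAA on the gene strand. The URI1, RRAS2 and DSEL windows hold 1 of them on the opposite strand, and the other windows hold neither letters on either strand.

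Past gene ends, peaks were most frequent in the first few kilobases and thinned out with distance. The median member lay 2740.5, 3192 and 3044.5 bp past the gene end in replicates 1, 2 and 3 (2992 ± 230, SD, n = 3). Within 1 kb of the end lay 16%, 16.6% and 18.1% of the members. Counts per distance also depend on how much sequence between genes there is, so densities are given per Mb of gene-free sequence, each base being given to its nearest gene end or start. The density was 6.85 ± 2.01 summits per Mb in the first 100 bp (SD, n = 3), 7.47 ± 1.77 between 1 and 2 kb, 4.40 ± 1.72 between 5 and 6 kb and 2.66 ± 0.501 between 9 and 10 kb. It was 1.37 ± 0.323 between 18 and 20 kb, beyond the window. The mean density was thus highest between 1 and 2 kb and not at the annotated end. In each list the density between 1 and 2 kb was above that between 500 and 1000 bp (means 7.47 and 5.91) and that between 2 and 3 kb (mean 6.05). The lists differed in the first 100 bp, which held only 6, 10 and 11 summits. In replicate 2 the density there, 7.61 per Mb, was above the 6.80 between 1 and 2 kb, and in replicates 1 and 3 it was below.

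The sequence just before the starts of the same genes was the mirror against which the downstream side was set. Of the summits nearest to a gene end within 10 kb there were 284, 403 and 521 in the 3 lists, and of those nearest to a gene start within 10 kb upstream there were 48, 128 and 130. Per Mb these are 3.51, 4.98 and 6.44 downstream and 0.571, 1.52 and 1.55 upstream. The downstream side held more in each list, by 6.15, 3.27 and 4.16 times, and the ranges of both sides did not overlap. The mean log2 ratio was 2.13 ± 0.459 (SD, n = 3), with p = 0.25 in a two-sided exact permutation test that flips signs over the lists, the smallest p that 3 lists can give. Leaving out peaks whose exact fold and p recur in at least 10 peaks, the mean log2 ratio was 3.03 ± 0.134 (SD, n = 3). Gene-free sequence away from gene ends held 0.634 ± 0.110 summits per Mb.

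**Figure D1:**
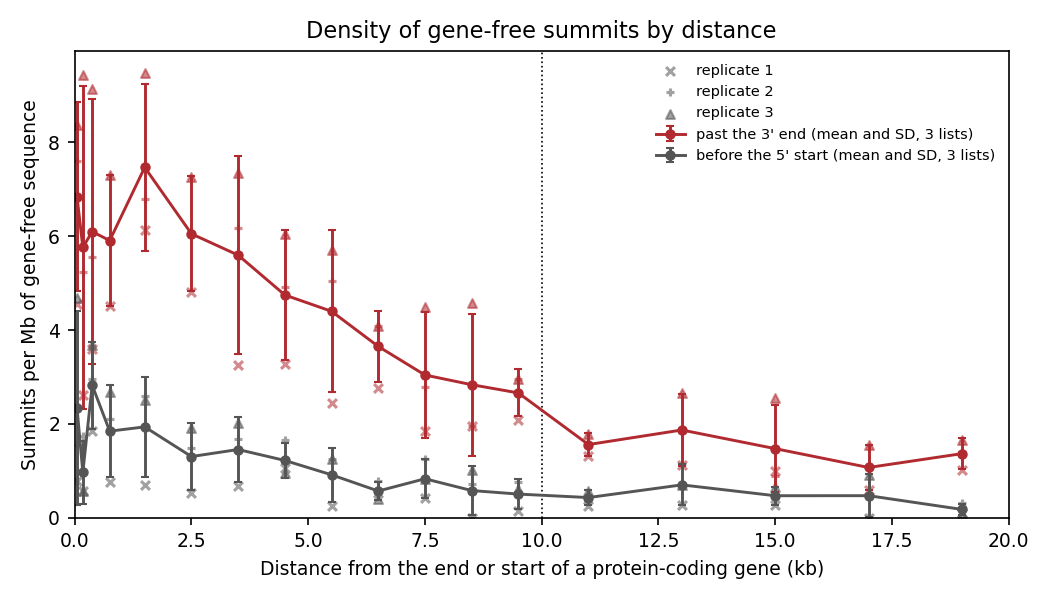
Density of summits, per Mb of gene-free sequence, against the distance in kb past the 3' ends (red) and before the 5' starts (grey) of protein-coding genes. Circles and bars are the mean and SD over 3 lists, small symbols are the lists, and the dotted line marks the 10 kb limit; the downstream density falls from 7.47 per Mb between 1 and 2 kb to 2.66 between 9 and 10 kb, and the downstream mean lies above the upstream mean in every bin.

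The genes whose ends had a downstream peak mostly had peaks within the gene as well. In replicate 1, 104 of 152 such genes (68.4%) had a summit in their own body, where 35.2% of all 20046 protein-coding genes did. In replicate 2 it was 223 of 315 (70.8%) against 35.7%, and in replicate 3 it was 266 of 323 (82.4%) against 45.8%. The share among all protein-coding genes includes genes that RH30 may not transcribe, and RNA levels were not measured here. Counted over peaks rather than genes, 76.0%, 73.7% and 86.6% of downstream peaks belonged to a gene with a peak of its own, and for peaks before gene starts the shares were 62.5%, 62.5% and 69.2%. The difference was 14.0 ± 3.15 percentage points (SD, n = 3; p = 0.25, two-sided exact sign-flip permutation test). These shares depend on the threshold: with peaks of at least 4-fold only, 36.2 ± 13.7% of host genes and 15.4 ± 6.61% of all protein-coding genes had a peak in the body (SD, n = 3).

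The peaks inside those genes were also sorted by place. A 3' UTR peak was present in the same list for 64.7%, 51.3% and 68.2% of downstream peaks, and an intronic peak for 13.7%, 42.7% and 45.3%. The intronic share was lowest in replicate 1, while the 3' UTR shares of the lists were closer together. Over all peaks of the lists, 9956 of 23715, 6924 of 23651 and 11280 of 45832 lay in a 3' UTR. The shares of all protein-coding genes with a 3' UTR or intronic peak were not computed, so these values are not read as a trait of the hosts. Having a peak in the gene did not vary with distance beyond the spread of the lists: the share was 80.4 ± 8.48% within 1 kb, 78.2 ± 7.95% from 1 to 5 kb and 79.0 ± 5.29% from 5 to 10 kb (SD, n = 3).

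A part of the members lay inside gene models that another annotation extends farther. RefSeq on GRCh38.p14 has a record of the same gene that reaches over the summit for 24, 33 and 53 members, which is 8%, 7.62% and 9.57%. A RefSeq record of a different gene held 35, 46 and 57 members. RefSeq records of the same gene covered 10.9 ± 2.00% of the members from 1 to 5 kb and 2.74 ± 2.39% of those from 5 to 10 kb (SD, n = 3). The peak interval itself reached back into a gene body for 11, 10 and 24 members. Another 31, 69 and 86 members also lay within 10 kb past a second gene end on the other strand, and 16, 30 and 33 lay nearer to a gene start than to the gene end, so their host gene is uncertain. The counts for second ends and for starts used protein-coding genes only. Members with a second protein-coding gene end, or the start of an annotated gene of any type, within 10 kb were common. Without them the downstream share of peaks was 0.663 ± 0.110%, where it was 1.43 ± 0.344% with all members (SD, n = 3). On the mitochondrial genome, whose genes are read from long shared transcripts, lay 1, 0 and 1 members.

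In size and height the members were middling peaks. Their median width was 197.5, 193 and 202.5 bp, and 10, 3 and 19 were 1 kb or wider. The authors' fold enrichment, a ratio over the peak caller's background, had medians of 3.24, 3.47 and 3.40 in the members and 2.6, 2.98 and 2.81 in 3' UTR peaks of the same lists. The downstream median was higher in each list, by 0.577 ± 0.0779 (SD, n = 3; p = 0.25, two-sided exact sign-flip permutation test). It was also above that of peaks in coding sequence in each list, by 0.631 ± 0.0841 (SD, n = 3; p = 0.25, same exact test). Peaks between genes and away from gene ends had medians of 4.51, 3.62 and 3.39, and the difference from the members changed sign between lists (p = 0.5, same exact test). Many members sat at low pileups, where many peaks carry the very same pair of fold and p: 62.3%, 72.1% and 72.0% of members shared their pair with 10 or more peaks of the list, against 53.7%, 61.0% and 68.0% of all peaks.

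Agreement between the lists was lower for the members than for peaks in 3' UTRs. A downstream peak touched a peak of both other lists in 28.7%, 22.2% and 14.8% of cases in replicates 1, 2 and 3, where all peaks of the lists did so in 37.7%, 37.1% and 18.4%. For 3' UTR peaks the shares were 41.6%, 57.4% and 33.6%, higher than the members' in each list, by 22.3 percentage points on average (SD 11.6, n = 3; p = 0.25, two-sided exact sign-flip permutation test). For peaks between genes and away from gene ends they were 22.1%, 16.8% and 16.8%, so that the members were above in replicates 1 and 2 and below in replicate 3 (p = 0.5, same exact test). The share depends on what counts as shared, and fell to 6.04 ± 2.00% (SD, n = 3) when both intervals had to be covered by 50%.

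Sequence that occurs more than once in the genome was more frequent at the members than in 3' UTRs, and less so than elsewhere between genes. The 31 bases centred on the summit occurred at more than 1 place in GRCh38 for 14.3%, 11.8% and 11.2% of members, for 5.46 ± 0.302% of 3' UTR peaks and for 40.2 ± 12.3% of gene-free peaks away from gene ends (SD, n = 3). The ranges of these 3 classes did not overlap. With summits at 1 place only, 1131 members were left. This count was made after the data were seen.

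**Figure D2:**
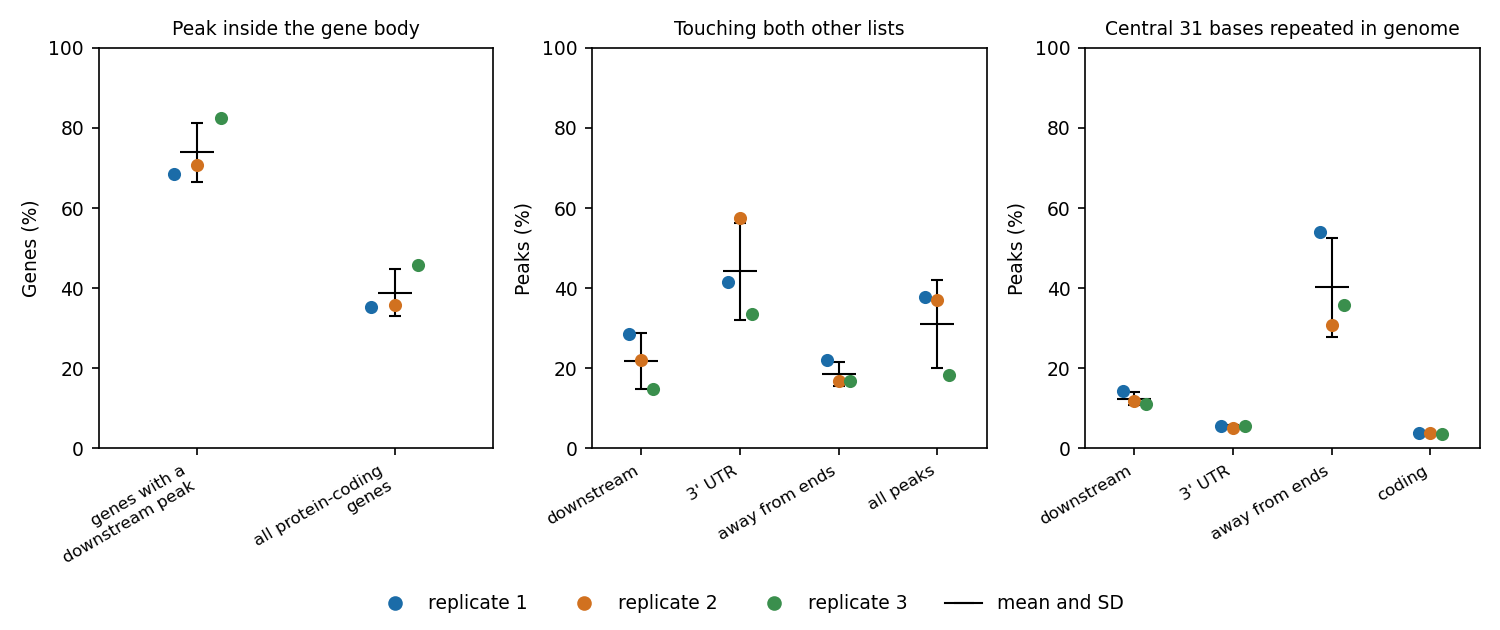
Left, percent of genes with a summit in their own body, for genes with a downstream peak and for all protein-coding genes. Middle and right, percent of peaks touching a peak of both other lists and percent whose central 31 bases occur more than once in the genome, by class of peak; points are the 3 lists and bars the mean and SD. Genes with a downstream peak lie between 68.4% and 82.4%, above the 35.2% to 45.8% of all protein-coding genes.

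Merged across lists, the members formed 922 regions past the ends of 529 genes. All 3 lists held 80 of the regions, 166 were in 2 lists and 676 in 1. By gene, 74 of 529 (14.0%) had a downstream peak in every list, which is 0.369% of all protein-coding genes, 113 had one in 2 lists and 342 in 1 list. Of the 74 genes, 48 (64.9%) also had a peak inside the gene in every list, against 25.7% of all protein-coding genes. The counts grow when a list is left out: 143 regions were shared without replicate 1 and 157 without replicate 2, and 136 genes without replicate 1, since then only 2 lists have to hold the region or gene. With single-copy summits only, 64 regions and 64 genes were held by all lists.

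The 80 shared regions lay at a median of 3292 bp past the gene end, 12 of them within 1 kb and 24 beyond 5 kb. In 41 of them the 3 summits fell within 100 bp. RefSeq records of the same gene held 11 and records of another gene 12. The nearest was at IL3RA, the interleukin-3 receptor alpha chain, 50, 44 and 47 bp past the end with folds of 2.77, 4.25 and 4.42. The farthest was at URI1, at 9547, 9793 and 9671 bp with folds of 2.56, 2.86 and 7.00. IL3RA lies in a stretch that chromosomes X and Y share.

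Downstream peaks came in clusters at some genes. In replicates 1, 2 and 3, 69, 74 and 106 genes had 2 or more of them, and these genes held 72.3%, 44.3% and 60.8% of the members. The most at 1 gene was 8, 6 and 12. Members of such a cluster share a transcript or locus and are no independent observations.

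HEYL, a basic helix-loop-helix repressor of the Notch pathway, had the most members of the genes with one in every list, with 6, 6 and 12. They ran from 558 to 9657 bp past the end, and 5 of its regions were in all lists. Of the 24 HEYL summits, 21 were single-copy. The central bases of the replicate 1 summit at 4439 bp occur at 1991 places in the genome. Those of the replicate 3 summit at 4392 bp occur at 23 places, and those of the replicate 1 summit at 9608 bp at 18. The positions of these summits, which lie in shared regions, are therefore uncertain. One of the shared HEYL regions, at 6148, 6143 and 6176 bp, had folds of 3.78, 2.72 and 3.78. All folds past HEYL were modest, and the 3 lists overlapped. The next annotated gene, PABPC4, starts 46644 bp past the HEYL end on the same strand, and no RefSeq record covered any of the 24 members.

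URI1, an unconventional prefoldin chaperone, had 5, 3 and 12 members. The region with the tightest summits, printed above, had folds of 3.35, 6.56 and 7.42. Replicate 3 was the highest there and also held most of the members, among them 1 of 11.96-fold at 8315 bp. Another region was shared at 1660, 1601 and 1888 bp, with folds of 3.11, 3.13 and 4.65.

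DSEL, an epimerase-like protein of dermatan sulfate synthesis, had 2, 6 and 4 members. At the printed DSEL window, 6653, 6652 and 6634 bp past the end, the folds were 15.4, 4.67 and 8.89. Replicates 1 and 3 called there a single interval of 6062 bp each, while replicate 2 broke the same stretch into shorter peaks. ZWINT, a kinetochore protein, was similar: replicates 1 and 3 had 1 wide interval with folds of 11.3 and 18.4, and replicate 2 had 5 peaks with folds from 3.13 to 4.49. The wide ZWINT intervals reached back into the gene, however, and the wide DSEL intervals did not. The best peak of a gene in a list is taken as the one with the highest −log10 q, which need not have the highest fold. It can also lie at a different place in each list. The mean best fold was 9.66 ± 5.41 past DSEL and 11.2 ± 7.27 past ZWINT (SD, n = 3), so their heights differ widely between lists.

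RRAS2, a small GTPase of the Ras family, had 3, 3 and 5 members. At the printed RRAS2 window, 781, 778 and 768 bp past the end, the folds were 5.37, 10.2 and 4.89. A second RRAS2 region at 1831, 1625 and 1821 bp had folds of 6.99, 6.61 and 6.79, close to each other in all lists. All 11 RRAS2 members also lay within 10 kb past a second gene end on the opposite strand.

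**Figure D3:**
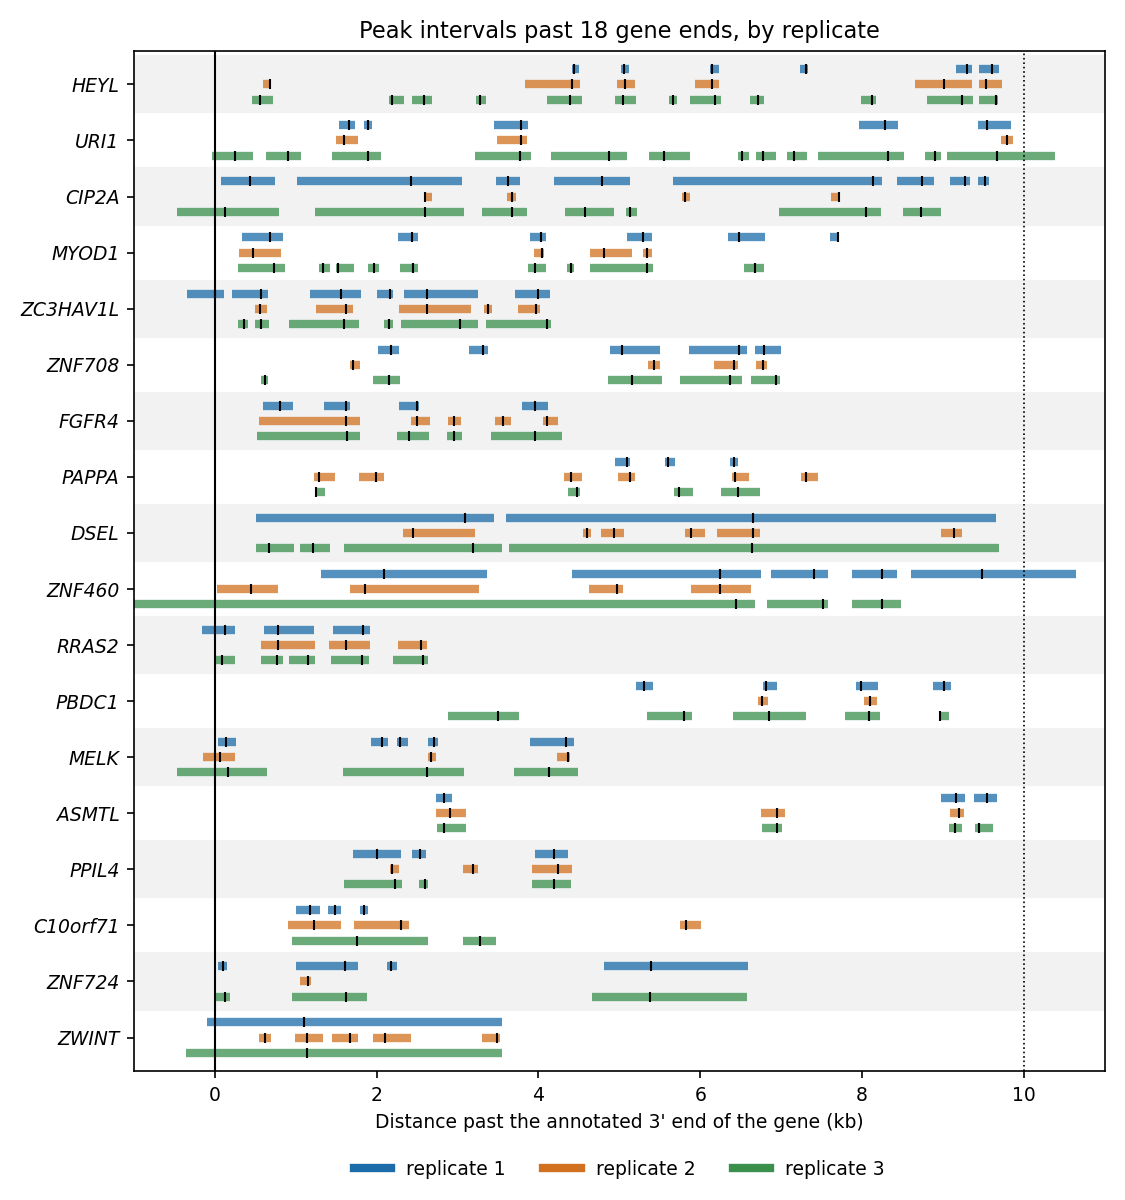
Peak intervals (bars) and summits (ticks) by replicate past the 3' ends of the 18 named genes with the most members, with the distance in kb past the annotated end on the horizontal axis. HEYL has 6, 6 and 12 peaks in replicates 1, 2 and 3, spread up to 9657 bp; intervals that cross 0 reach back into the gene.

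Among 34 regulators and markers of fusion-positive rhabdomyosarcoma, 5 (14.7%) had a downstream peak in any list, where 2.64% of all protein-coding genes had one. These were FGFR4, MET, MYOD1, MYOG and SOX8. FGFR4 and MYOD1 had them in every list, and MET, MYOG and SOX8 in replicate 3 alone, the longest list. PAX3, FOXO1 and DDX5 itself had no downstream peak in any list. The list was chosen for genes known to be active in this tumour, and the part of RNA level in its count was not tested.

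FGFR4, a receptor tyrosine kinase that the fusion protein activates, had 4, 5 and 4 members. At the printed FGFR4 window, 1617, 1616 and 1638 bp past the end, the folds were 2.84, 7.28 and 4.12, lowest in replicate 1 and highest in replicate 2. Another region, at 2495, 2497 and 2398 bp, had folds of 4.31, 4.81 and 6.30, and the farthest shared one had 2.90, 5.13 and 5.38, the 5.13-fold summit having 6 copies of its central 31 bases in the genome. All 13 members lay within 4109 bp of the end, no RefSeq record covered them, and the next annotated gene, NSD1, begins 33685 bp on.

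MYOD1, the master regulator of the muscle lineage, had 6, 4 and 9 members with 3 regions in all lists. The folds were the lowest of the named genes, with a mean best fold of 2.18 ± 0.202 (SD, n = 3). At the printed MYOD1 window, 5295, 5339 and 5339 bp past the end, they were 1.77, 2.11 and 2.02. A region near the end, at 682, 468 and 730 bp, had folds of 1.97, 1.75 and 1.56. MYOD1 itself had 1 peak in its body in each list.

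The other lists are given beside the 2.64% of all protein-coding genes with a downstream peak in any list and the 0.369% with one in every list. Of 38 factors of 3' end cleavage, polyadenylation and termination, 1 (2.63%) had a downstream peak, namely CSTF2, at 162 bp and 4.01-fold in replicate 2. None of 3 transcripts known for read-through past the gene end had any. Of 37 partners of DDX5 and of the microRNA-processing Microprocessor, MYOD1 and THOC5, a subunit of the THO messenger RNA export complex, had them in every list and no other member had any, which is 5.41% of the list. THOC5 had 3, 2 and 2 members with best folds of 5.13, 4.81 and 3.25, at 2332, 2247 and 595 bp past the end. In the THOC5 region of all lists the replicate 3 fold was 3.06. The central 31 bases of the 4.81-fold summit occur at 12 places in the genome. Of 70 replication-dependent histone genes, whose messages end without a poly(A) tail, 3 (4.29%) had a downstream peak: H2AC11 in every list, with folds of 2.54, 3.75 and 3.75 about 5 kb past its end, and H2BC11 and H2BC17 in replicate 3. H2AC11's members lay in another gene's RefSeq record. Of 246 zinc finger genes on chromosome 19, 15 (6.10%) had a downstream peak in any list and ZNF460, ZNF708 and ZNF724 in every list. Best folds past ZNF460 were 5.79, 3.40 and 6.60, past ZNF708 5.26, 3.18 and 7.75, and past ZNF724 7.06, 3.05 and 7.79. Those past ZNF460 lay at 6246, 441 and 6447 bp and those past ZNF724 at 5386, 1149 and 5374 bp. The lists are therefore not compared at the same place for ZNF460 and ZNF724. In the ZNF724 region of all lists the folds were 5.01, 3.05 and 7.36. In replicate 3 the ZNF460 interval was 10065 bp wide and reached back into the gene, and the central 31 bases of its summit occur at 664 places in the genome, those of the replicate 2 summit at 5. A long non-coding RNA gene begins 3441 bp past the ZNF460 end on the same strand, before the best summits of replicates 1 and 3.

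For some genes the shared peaks lay in a longer RefSeq record of the gene. All 17 members past ZC3HAV1L, a relative of the zinc-finger antiviral protein, were of this kind. Its 4 shared regions lay between 554 and 4103 bp past the end, with folds of 4.75, 2.97 and 2.96 in the nearest. Of the 17 ZC3HAV1L summits, 13 were single-copy. In another shared region, the central bases of the replicate 1 and replicate 2 summits, both at 2626 bp, occur at 11221 places in the genome. The positions of these summits are therefore uncertain, while the replicate 3 summit of that region, at 3029 bp, was single-copy. All 6 members past ZNF800, a zinc finger protein, also lay in a longer RefSeq record of the gene, with best folds of 5.80, 4.13 and 8.46. All 19 members past CIP2A, an inhibitor of the phosphatase PP2A, lay instead in a RefSeq record of another gene, as did all 14 past ZNF708. The CIP2A folds were 8.32, 4.03 and 8.37 at the best peaks, which lay 8130, 5807 and 8043 bp past the end.

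Of the 74 genes with a downstream peak in every list, 7 had no peak in the gene body in any list: CDK1, DUSP15, N4BP3, OR6C65, PCSK2, PPIAL4D and TRPV4. CDK1, the main mitotic cyclin-dependent kinase, had 2, 1 and 1 members with best folds of 4.15, 2.69 and 2.84, at 8803, 5175 and 5616 bp. PCSK2, a convertase of prohormones, had 2 in each list, with folds of 3.31, 4.76 and 3.49 at the printed PCSK2 window, 635, 599 and 628 bp past the end. All 6 PCSK2 members also lay within 10 kb past a second gene end, on the opposite strand, where BFSP1 is the next gene. TRPV4, a calcium-permeable channel, had best folds of 4.05, 6.40 and 5.90, and its 6 members shared their place with a second gene end too. N4BP3, at 676, 769 and 782 bp past its end with folds of 4.50, 3.67 and 2.76, and DUSP15, a dual-specificity phosphatase, had all their members in their own longer RefSeq record. The members past OR6C65, an olfactory receptor, and PPIAL4D, a cyclophilin of a family of near copies, lay in records of other genes. For PPIAL4D all 6 summits had 2 copies in the genome, so the place of its reads is uncertain. The 7 genes were picked out after their values were seen.

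CRIP2, a LIM-domain protein, had 1 member in each list, at 4595, 4616 and 4609 bp past the end with folds of 4.15, 7.70 and 7.69. Its only peak in the gene body was in replicate 3, and its members lay nearer to the start of CRIP1, the next gene on the same strand, than to the CRIP2 end. TEAD4, a transcription factor of the Hippo pathway, had 1, 1 and 2 members with best folds of 5.14, 5.96 and 4.84, at 4983, 4802 and 5204 bp. A long non-coding RNA gene begins 760 bp past the TEAD4 end on the same strand, nearer to that end than these best peaks. Which of the genes the peaks belong to was not tested. The best folds past PPIL4, a peptidyl-prolyl isomerase of the cyclophilin kind, were 7.82, 3.08 and 6.49, at 1998, 4241 and 2229 bp past the end. In the shared region nearest to the PPIL4 end the folds were 7.82, 3.52 and 6.49. The central 31 bases of the 7.82-fold summit occur at 301 places, so its position is uncertain. Past MELK, a mitotic kinase, the best folds were 7.58, 3.34 and 8.04, at 4340, 66 and 157 bp past the end. The replicate 1 peak nearest to the MELK end lay at 133 bp, with a fold of 3.42. In replicates 2 and 3 the interval of the best peak reached back into the gene. Past PAPPA, a protease of insulin-like growth factor binding proteins, the best folds were 4.07, 4.10 and 3.83, at different places, 5604, 1995 and 5740 bp past the end. The PAPPA region in all lists, at 6421, 6429 and 6468 bp, had folds of 2.45, 1.90 and 2.36. PBDC1 and C10orf71 had mean best folds of 6.26 ± 1.74 and 4.72 ± 0.696 (SD, n = 3). ASMTL, in the same stretch of X that Y shares, had 5.45 ± 1.00 (SD, n = 3), and none of its 10 summits was single-copy. The best ASMTL peaks lay at different places, 9545, 2907 and 9151 bp past the end. Of the 10 members, 7 lay in a RefSeq record of another gene and 7 nearer to a gene start than to the ASMTL end.

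**Figure D4:**
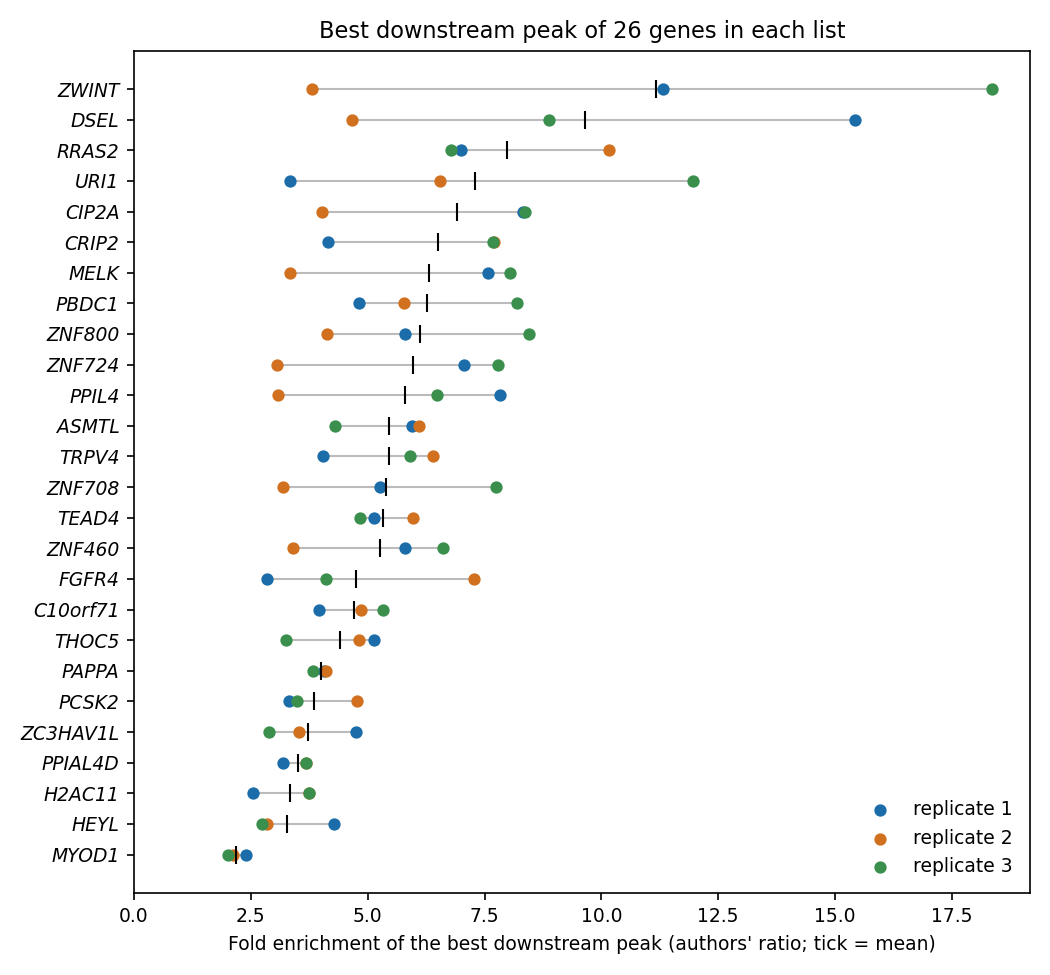
The authors' fold enrichment (horizontal axis, a ratio) of the best downstream peak in each list for the 26 named genes with a downstream peak in every list, the best being the peak with the highest −log10 q. Coloured points are the replicates and the black tick their mean. ZWINT spans 3.80 to 18.4 and MYOD1 2.02 to 2.40. For some genes the best peaks of the lists lie at different places.

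Poly(A) signals around the summits were searched as the letters AATAAA or ATTAAA, on both strands, in the genome up to 100 bases to either side of the summit. On the strand of the gene 23.3%, 22.2% and 22.7% of the members held one, and on the opposite strand 31.3%, 31.2% and 29.1%. The gene strand had fewer in each list, with a ratio of 0.746 ± 0.0358 and a log2 ratio of -0.42 ± 0.0691 (SD, n = 3; p = 0.25, two-sided exact sign-flip permutation test, the smallest p possible). The size depended on the window: the log2 ratio was -0.71 ± 0.151 with 50 bases to either side and -0.12 ± 0.112 with 250 (SD, n = 3). Within 1 kb of the end the shares were 17.5 ± 6.27% on the gene strand and 33.0 ± 2.25% on the opposite strand. Gene-free windows of the same length were taken as 444423 tiles over the 10 kb past all protein-coding genes. They held the letters in 21.5% on the gene strand and 22.8% on the opposite strand, a ratio of 0.944. Windows at 3' UTR peaks held them in 28.1 ± 2.50% and 28.5 ± 0.607%, a ratio of 0.986 ± 0.0846 (SD, n = 3). On the gene strand the members were thus near the tiles, and on the opposite strand above them. The tiles were not matched to the members in G and C, which made up 44.2% of the tiles and 41.6 ± 0.246% at members (SD, n = 3).

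In base composition the members were poorer in G and C than 3' UTR peaks and like other peaks between genes. The GC content within 100 bases of the summit was 41.6 ± 0.246% at members, 43.5 ± 0.392% at 3' UTR peaks, 41.3 ± 0.869% at gene-free peaks away from gene ends, 45.8 ± 0.984% over all peaks (SD, n = 3) and 44.2% over the tiles. Windows with 4 runs of 3 or more G on either strand, a pattern of the kind that can fold into a G-quadruplex, made up 1.33 ± 0.0613% of members, 4.02 ± 0.371% of 3' UTR peaks, 0.773 ± 0.393% of gene-free peaks away from gene ends and 3.24 ± 0.254% of all peaks (SD, n = 3). On the gene strand T was 30.0 ± 0.685% and A 28.4 ± 0.443% (SD, n = 3), T being ahead in each list by 1.61 points on average. At 3' UTR peaks T was ahead by more in each list, 3.80 points on average.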

How the data were processed

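Peak lists of 3 DDX5 immunoprecipitates were analysed, 1 deposited list for each sample. Per the submitters' processing notes, the tools were MACS2 2.2.7.1, STAR 2.6.1d, SAMtools 1.10, cutadapt 1.11, bcl2fastq 2.20 and FastQC 0.11.8, on build GRCh38/hg38. Parameters and the control of the peak calls are not given in the sources used here. The authors gave each peak a fold enrichment, a ratio. Its p-value and q-value were deposited on the −log10 scale, and the score deposited by the authors was not used. They serve here to describe, order and select peaks of the same list. Intervals for counting error are not given, because depth is unknown.

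Summits of one interval were counted as 1 peak, taking the summit of highest −log10 q. Summits were placed with GENCODE version 44 on GRCh38, and RefSeq records of GRCh38.p14 were matched by symbol (99.3 ± 0.0277% of members, SD, n = 3). A gene's own peak is a summit in its body. Peaks sharing at least 1 bp were merged into regions. Paired differences between classes of peak were tested over the 3 lists by flipping their signs (two-sided exact permutation test, smallest p 0.25). The scripts used Python 3.11.15, numpy 2.4.6, scipy 1.17.1, pandas 2.3.3 and pysam 0.24.0, and were tested on simulated data.

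The members and gene lists were chosen with earlier results of these data known. Named genes were DDX5, PAX3 and FOXO1, the 20 genes with a downstream peak in every list of highest mean percentile of −log10 q, the 8 with most members, up to 4 from each of 6 gene lists, and the 3 with the farthest shared region. Genes outside this rule are IL3RA, the genes without a peak of their own, and list members called in fewer lists. One gene's values, because it is Y-linked, and one sequence window of the same choice are not reported here. Alternatives were other thresholds, equal list lengths, a 5 kb window, other host and overlap rules, each list left out, and, added after the data were seen, single-copy summits.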

Additional observations from a re-analysis of the deposited data

How the results depend on the processing

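Of 118 alternative values for 10 results, 79 kept their call. Only the log2 density ratio and the log2 strand ratio could change sign, and neither did. Counts kept it within 1.5 times, values with no test within 1 SD of the lists, and the density ratio and the strand ratio of poly(A) letters, which have a test, by keeping their direction and their side of the threshold, whatever their size. With so few lists the side of the threshold could not change, so for these ratios only the direction could fail. The log2 density ratio ran from 1.88 without replicate 1 to 3.03 without peaks whose fold and p recur. The log2 strand ratio ran from -0.71 with 50 bases to either side of the summit to -0.12 with 250, and was -0.63 with a fold of at least 4 and -0.60 with equal list lengths. With −log10 q of at least 5, the share of downstream peaks whose gene has a peak of its own was 63.7%, the median fold 4.06, the shared regions 34 and the genes in every list 29. With a fold of at least 4 the downstream share of peaks was 2.12%, the share within 1 kb 14.6%, the share with a peak in the gene 38.6%, the share touching both other lists 12.7%, the median fold 4.87, the shared regions 12 and the genes in every list 13. With the 20000 best peaks of each list, the share with a peak in the gene was 71.6%, the median fold 3.88, the shared regions 46 and the genes in every list 44. With a 5 kb window the downstream share was 1.02%, the median distance 1994 bp, the share within 1 kb 23.7% and the shared regions 53. Without peaks that reach a gene body the share within 1 kb was 15.2%. Without peaks near a second protein-coding gene end or the start of a gene of any type, the downstream share was 0.663%, with 38 shared regions and 33 genes in every list. Leaving out peaks whose fold and p recur in 10 or more peaks, the median distance was 2479 bp, the share within 1 kb 23.3%, the share with a peak in the gene 68.5%, the median fold 3.20, the shared regions 26 and the genes in every list 27. Under 50% reciprocal overlap the share touching both other lists was 6.04% with 29 shared regions, and for summits within 100 bp it was 11.2% with 49. Leaving out one list at a time gave 32.1% to 43.5% touching every other list, 107 to 157 shared regions and 94 to 136 genes in every list, where fewer lists have to agree. Stricter rules leave fewer peaks by construction, and other causes were not tested. With 3 lists no exact test can reach a p below 0.25, so the p-values say nothing about stability, and without depth a missing peak is not an absent RNA. No paired analysis was possible because the INPUT samples that share replicate numbers with the immunoprecipitates have no values used here. Classes of peak were paired within a list instead.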
